A study of Mus musculus with 16 samples.

Results

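The response of the dorsal hippocampus to spatial learning without drug was measured by RNA-Seq in 8 of the 16 mice of the series: the 4 water-treated mice killed after training in the Morris water maze (learning water) and the 4 water-treated mice taken from their home cage (home cage water). Every mouse of both groups drank plain water for 2 weeks. The mice were C57Bl6/J, 8 to 9 weeks old when treatment began, and each library is 1 mouse. Training consisted of 2 days of habituation and 3 days of acquisition with 4 trials a day, and tissue was taken 1 hour after the last trial. The home cage mice did not swim, so learning cannot be told apart from swimming, handling or the new place. The other 8 mice drank caffeine at 0.3 g/L, 4 in each condition. They share the gene filter, the scaling, the estimate of the spread between mice and a later fit that holds the level of Ttr. The average level used in choosing genes to name also covers them. Otherwise they are used only where their own values are given. Mice are named below by the replicate numbers of the labels, 6, 8, 11 and 20 in the home cage group and 24, 33, 36 and 38 in the learning group, and values are listed in that order.

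In the Morris water maze a mouse learns the place of a hidden platform from cues around the pool, a task that depends on the dorsal hippocampus. Neuronal activity switches on immediate early genes within minutes, without new protein synthesis. Their products include transcription factors of the AP-1, Egr and Nr4a families, which act on later genes, and effectors such as Arc and Homer1 that act at the synapse. The choroid plexus, an epithelium that makes cerebrospinal fluid, lies next to the hippocampus in the lateral ventricle and is known for its very high expression of Ttr, which encodes transthyretin.

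Between 25235565 and 36815500 reads were counted on genes in the home cage mice and between 30861776 and 44066666 in the learning mice (exact two-sided permutation test of the means, p = 0.143). Markers of the hippocampal fields were present in every library: Prox1 (dentate gyrus) at 97.9 to 180 CPM, Fibcd1 (CA1) at 130 to 217 CPM and Rgs14 (CA2) at 126 to 169 CPM, where CPM is the depth-corrected read count that edgeR gives after TMM scaling. Prox1 overlaps genes on the opposite strand. The share of counts on mitochondrial chromosome genes was 3.55% to 3.89% in the home cage mice and 3.29% to 3.44% in the learning mice. These ranges do not overlap (exact two-sided permutation test, p = 0.0286, the smallest p that 4 against 4 mice allow). On the leading component of variation among the 8 water libraries, learning replicate 24 lay at -7.91 among the home cage mice (-27.4 to -3.12), and the other 3 learning mice lay between 15.0 and 23.6. The part of RNA quality in the results was not tested. Values without replicate 24 are given for the cell type lists and for Mbp, Rasl11a and Gprc5c, and values of other single genes include that mouse.

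Of 17830 genes tested, 173 (0.970%) passed an adjusted p of 0.1 in edgeR's quasi-likelihood test, 114 higher (0.639%) and 59 lower (0.331%) after learning. Egr2 (3.60) and Fos (2.39), both activity-induced transcription factors, had the largest increases, and Tmem72 of the choroid plexus list (-2.80) the largest decrease. The 2 sets had different sizes of change: the median log2 fold change was 0.41 for the higher genes, of which 73 lay under 0.5, and -0.80 for the lower genes, of which 15 lay under 0.5 in size. The 4 learning mice lay above the 4 home cage mice in 111 of the 114 higher genes, while the groups overlapped in 14 of the 59 lower ones. Such a complete separation was found in 3.86% of all tested genes on the higher side and in 3.12% on the lower side.

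**Figure D1:**
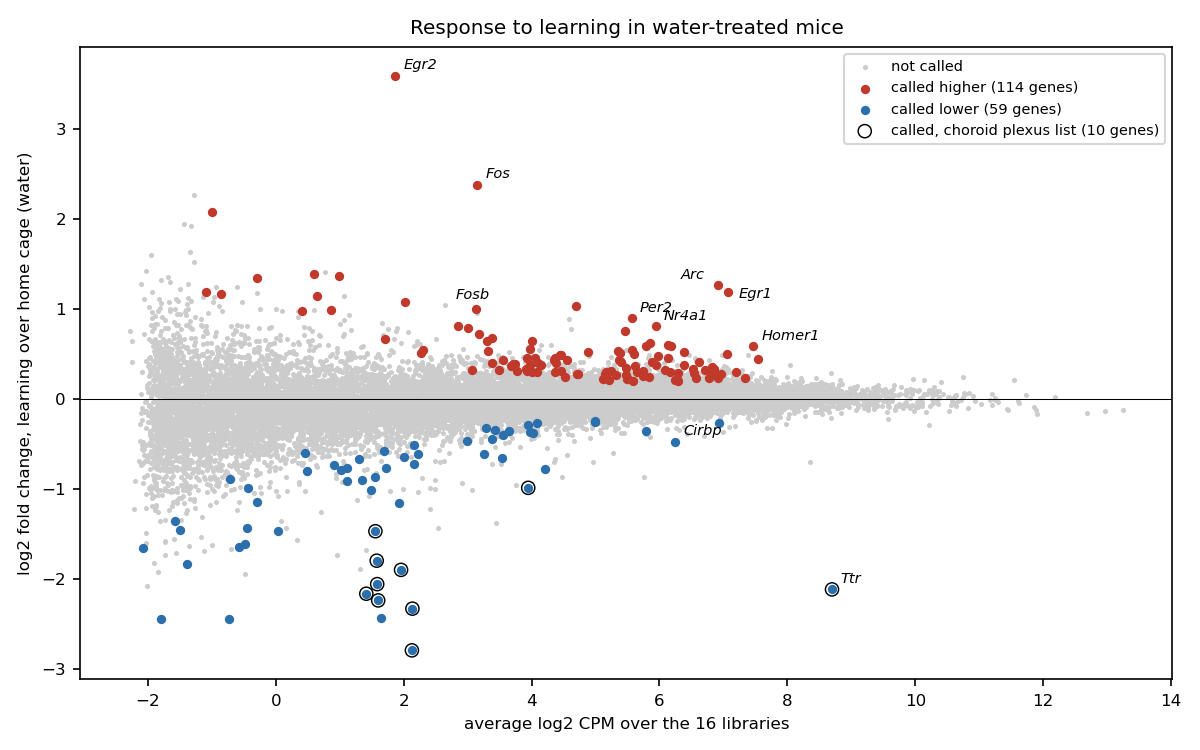
Log2 fold change of learning over home cage in water-treated mice (vertical axis) against the average log2 CPM over the 16 libraries (horizontal axis) for the 17830 genes tested; red points are the 114 genes called higher, blue points the 59 called lower, and rings mark 10 called members of the choroid plexus list. Egr2 (3.60) and Fos (2.39) stand above all other called genes of their level, and Ttr (-2.12) is the only called gene on the right that is far below 0.

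The Egr factors are zinc-finger transcription factors of the immediate early class, and Egr2 had the highest fold change of all called genes. Egr2 (ENSMUSG00000037868, chr10:67535475-67542188, mm10) was at 0.119, 0.542, 0.551 and 0.564 CPM in the home cage mice and at 4.76, 6.26, 7.03 and 4.30 CPM in the learning mice. The lowest learning mouse was far above the highest home cage mouse. Egr2 was low at rest, at 0.564 CPM or less, so the size of its fold change rests on few reads. It was called in 28 of the 29 fits made and was not kept by the filter of at least 10 counts in every library. The group means of 0.444 ± 0.217 and 5.59 ± 1.27 CPM (SD, n = 4 each) stood 3.60 ± 0.28 log2 units apart (fold change ± its standard error, adjusted p = 4.91e-06 in edgeR). Egr1 was at 76.2, 71.3, 72.7 and 77.9 CPM at rest and at 149, 179, 214 and 138 CPM after learning (log2 fold change 1.19, standard error 0.11, adjusted p = 1.09e-05 in edgeR). Egr4 was at 16.8, 15.9, 15.6 and 15.2 CPM against 29.4, 36.3, 39.8 and 24.6 CPM (log2 fold change 1.04, adjusted p = 3.37e-04 in edgeR). Egr1 and Egr4 were tightly grouped at rest and spread out after learning, while for Egr2 home cage replicate 6 lay well below the other 3 home cage mice. Learning replicate 36 was highest for all 3 genes. The list of 6 Egr factors and Nab corepressors had these 3 called higher and none lower, with a median log2 fold change of 0.69 against -0.01 for all genes tested. Egr3 (0.27), Nab1 (0.09) and Nab2 (0.34), a corepressor that Egr factors induce, did not pass.

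The AP-1 factors bind DNA as pairs of Fos and Jun family proteins, and 5 of their 8 tested genes were called higher and none lower (list median 0.64). Fos (ENSMUSG00000021250, chr12:85473890-85477273, mm10) was at 1.59, 3.09, 2.21 and 3.12 CPM in the home cage mice and at 11.6, 12.1, 16.3 and 13.1 CPM in the learning mice. Its means of 2.5 ± 0.741 and 13.3 ± 2.14 CPM (SD, n = 4 each) stood 2.39 ± 0.20 log2 units apart (± standard error, adjusted p = 9.21e-06 in edgeR). Fosb was at 5.87, 4.56, 5.34 and 4.81 CPM and at 9.98, 11.2, 11.4 and 8.40 CPM, a log2 fold change of 1.0 (adjusted p = 2.07e-04 in edgeR). Neither gene had a home cage mouse within the range of the learning mice. Junb rose by 0.76 on the log2 scale, with learning mice at 44.1 to 65.3 CPM and home cage mice at 27.7 to 34.7 CPM. Junb overlaps Prdx2 on the opposite strand, and as the counting setting for strand is not stated, its count is uncertain. Atf3, a stress-induced member, was low, at 0.595 to 1.27 CPM against 1.71 to 2.72 CPM (log2 fold change 1.15, adjusted p = 0.0384 in edgeR). Fosl2 changed least of the 5 (0.53, adjusted p = 0.0854 in edgeR), with home cage replicate 6 at 35.1 CPM close to learning replicate 24 at 37.9 CPM, and it was called in 2 of the 8 fits that each left out a water library. Jun (0.28), Jund (-0.08) and Batf3 (-0.05) did not pass, and Fosl1 was too low to test.

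The Nr4a receptors are orphan nuclear receptors induced by cAMP and calcium signals, and 2 of the 3 were called higher. Nr4a1 was at 49.1, 35.6, 43.7 and 39.5 CPM at rest and at 53.8, 77.8, 95.8 and 66.1 CPM after learning (log2 fold change 0.81, adjusted p = 0.0396 in edgeR). Home cage replicate 6 and learning replicate 24 were within 5 CPM of each other, and the other mice were far apart. Of the 8 fits without 1 water library, Nr4a1 was called in 4 and Nr4a3 in 1. Nr4a3 rose by 0.50, from 108 ± 17.1 to 153 ± 11.9 CPM (SD, n = 4 each; adjusted p = 0.0923 in edgeR). Nr4a2 had a log2 fold change of 0.39 and an adjusted p of 0.20. Of 28 other immediate early regulators, Npas4, a transcription factor that neurons induce through calcium entry, was the only gene called, at 5.00 to 6.90 CPM against 7.46 to 13.6 CPM (log2 fold change 0.73, adjusted p = 0.0812 in edgeR). It was called in 2 of those 8 fits. The median of the 28 genes was 0.16. A fold change above 0 was found in 23 of them and in 8647 of all 17830 genes tested.

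**Figure D2:**
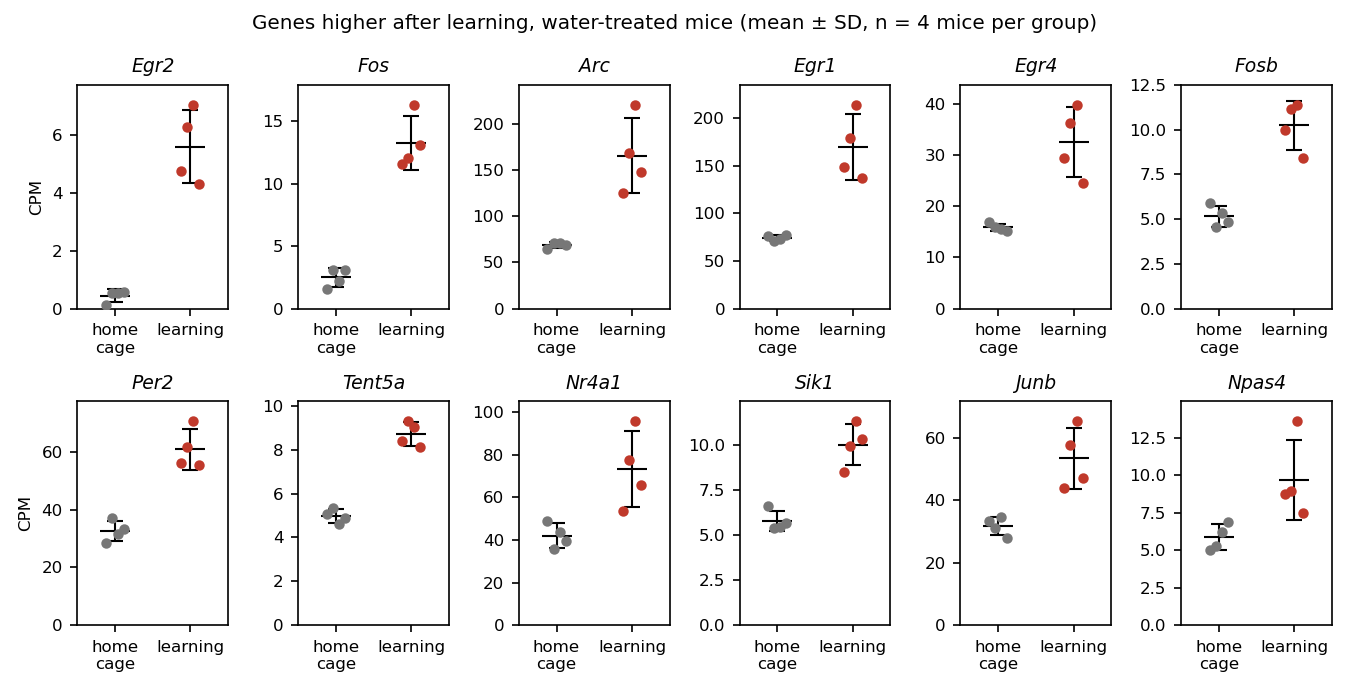
CPM in each of the 8 water-treated mice for the 12 called genes of largest increase whose groups do not overlap and whose average log2 CPM is 1 or more; grey points are home cage mice, red points learning mice, and bars show the mean ± SD of 4 mice. In each panel every learning mouse lies above every home cage mouse, with Egr2 at 0.119 to 0.564 CPM at rest and 4.30 to 7.03 CPM after learning.

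The bases upstream of 4 of these genes are shown because the genes moved together and belong to families controlled by cAMP response element (CRE) binding, serum response and Egr factors. Sequences are the 250 bases before a RefSeq start site on GRCm38.p6, 5′ to 3′ on the gene's strand. Capitals mark the CRE half-site TGACG on either strand, the CArG box bound by serum response factor, and the Egr motif GCGTGGGCG or GCGGGGGCG on either strand. Of 5 windows for Egr2, the most upstream that holds both a CArG box and a half-site is given.
Egr2, chr10:67537619-67537868, plus strand: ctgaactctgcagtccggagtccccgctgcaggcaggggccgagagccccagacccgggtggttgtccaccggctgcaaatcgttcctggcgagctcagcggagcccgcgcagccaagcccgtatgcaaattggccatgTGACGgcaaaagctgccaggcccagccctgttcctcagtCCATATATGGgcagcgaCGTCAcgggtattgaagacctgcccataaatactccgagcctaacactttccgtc
Fos, chr12:85473640-85473889, plus strand: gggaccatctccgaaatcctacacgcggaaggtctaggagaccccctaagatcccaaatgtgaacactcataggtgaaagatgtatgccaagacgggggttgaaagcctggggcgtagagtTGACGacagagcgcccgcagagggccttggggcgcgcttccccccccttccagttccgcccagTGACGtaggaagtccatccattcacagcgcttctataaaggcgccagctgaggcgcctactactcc
Fosb, chr7:19310046-19310295, minus strand: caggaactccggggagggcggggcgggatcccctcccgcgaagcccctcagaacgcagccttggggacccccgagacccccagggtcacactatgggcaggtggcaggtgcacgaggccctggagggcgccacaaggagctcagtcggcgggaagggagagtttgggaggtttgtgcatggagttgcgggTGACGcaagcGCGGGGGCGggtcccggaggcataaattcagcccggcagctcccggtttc
Nr4a1, chr15:101266596-101266845, plus strand: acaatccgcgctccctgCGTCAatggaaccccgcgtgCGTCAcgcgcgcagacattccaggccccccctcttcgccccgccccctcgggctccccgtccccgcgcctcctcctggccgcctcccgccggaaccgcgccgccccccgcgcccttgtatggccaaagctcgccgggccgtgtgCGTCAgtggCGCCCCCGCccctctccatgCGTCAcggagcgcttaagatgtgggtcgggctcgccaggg

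The RefSeq table matched 84 of the 114 higher genes and 39 of the 59 lower genes; Arc, Per2 and Sik1 were not matched. The CRE half-site was in a window of 41 of the 84 higher genes (48.8%) and of 10 of the 39 lower genes (25.6%), against 28.5% of the tested genes with a window. All windows in the table held it in 17.8% of cases. The Egr motif was in a window of 12 of the 84 higher genes (14.3%) and of 1 lower gene, against 6.45% of tested genes with a window and 3.06% of all windows. Base composition also differed between these sets. G and C made up 62.6% of the windows of higher genes, 60.0% of those of lower genes and 59.2% of those of tested genes. The part of base composition in these shares was not tested. The full CRE TGACGTCA was in a window of 5 higher genes (5.95%) and 1 lower gene, against 2.87% of tested genes with a window and 1.55% of all windows. The AP-1 site TGACTCA was in a window of 1 higher gene (1.19%) and 1 lower gene, against 3.91% of tested genes with a window and 4.46% of all windows. Egr2 was the only higher gene with a CArG box in these windows (1.19%), which 1 lower gene, 1.40% of tested genes with a window and 1.47% of all windows held. Letters that match the full CRE also match the half-site. The shares are counts of letter matches, not of bound sites.

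Activity-regulated effectors are the proteins through which early transcription acts on the synapse, on signaling and on secretion; 8 of 31 tested were called higher and none lower, with a list median of 0.23. Arc (ENSMUSG00000022602, chr15:74669083-74672570, mm10), which drives the removal of AMPA receptors from the synapse, was at 64.4, 70.9, 70.7 and 68.7 CPM at rest and at 126, 168, 221 and 148 CPM after learning. Its means of 68.7 ± 3.03 and 166 ± 40.6 CPM (SD, n = 4 each) stood 1.27 ± 0.19 log2 units apart (± standard error, adjusted p = 0.00427 in edgeR). With each of the 8 water libraries left out in turn, the log2 fold change stayed between 3.35 and 3.74 for Egr2, between 2.25 and 2.52 for Fos and between 1.1 and 1.39 for Arc, and all 3 were called every time. The home cage mice were within 7 CPM of each other and every learning mouse was clearly above them. Sik1, a kinase that restrains CREB coactivators, was at 5.42 to 6.63 CPM against 8.54 to 11.3 CPM (0.79, adjusted p = 0.00751 in edgeR). Homer1, a postsynaptic scaffold gene whose short form is the activity-induced product, rose from 133 ± 16.1 to 200 ± 14.8 CPM (SD, n = 4 each). Gene counts do not separate its forms, and it was called in 4 of the 8 fits that each left out a water library. Rasl11a (0.65, and 0.56 without learning replicate 24, which was highest), Gpr3 (0.54), Gadd45b (0.53), Tiparp (0.49) and Pcsk1 (0.43) made up the rest. Gadd45b acts in DNA repair and demethylation, and its home cage mice lay between 7.77 and 8.41 CPM and its learning mice between 11.2 and 12.3 CPM. Pcsk1, the prohormone convertase that cleaves neuropeptide precursors, was among the steadiest calls, at 19.2 to 22.8 CPM against 26.4 to 30.0 CPM. Gpr3 and Tiparp each overlap a gene on the opposite strand, and Gpr3 was called in 3 of those 8 fits. Bdnf (0.18), Nptx2 (0.12) and Vgf (0.12) did not pass.

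Feedback inhibitors of the MAP kinase pathway are induced by the signal they shut down, and 4 of 15 tested were called higher (list median 0.20). Dusp6, the cytoplasmic phosphatase of ERK, was at 44.2, 49.2, 42.6 and 40.4 CPM at rest and at 55.5, 73.4, 76.9 and 65.4 CPM after learning (log2 fold change 0.62, adjusted p = 0.0109 in edgeR). Spry4, a Sprouty inhibitor of receptor signaling, rose by 0.64, from 12.2 ± 0.820 to 19.1 ± 1.78 CPM (SD, n = 4 each). Errfi1, an inhibitor of the EGF receptor, rose by 0.50 and Spred1 by 0.30. Spred1 (adjusted p = 0.0854 in edgeR) was called in 3 of the 8 fits without 1 water library. Dusp5 had a log2 fold change of 0.78 and Dusp1 of 0.44, and neither passed (adjusted p = 0.12 and 0.24 in edgeR).

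The circadian clock list held 2 called genes among 18, both period genes, whose proteins repress their own transcription and whose promoters also respond to CREB and to glucocorticoids. Per2 was at 28.5, 37.0, 31.6 and 33.3 CPM in the home cage mice and at 56.0, 61.7, 70.6 and 55.4 CPM in the learning mice (log2 fold change 0.90, standard error 0.10, adjusted p = 2.43e-04 in edgeR). Per1 was at 50.6 to 64.7 CPM against 75.6 to 101 CPM (0.59, adjusted p = 0.00619 in edgeR). The groups did not overlap for either gene. Per3 (0.37), Cry1 (0.35), Dbp (-0.02) and Nr1d1 (-0.09) did not pass. All mice were killed within 2 hours of each other. The order of killing between the groups is not given, and the part of time of day was not tested.

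Glucocorticoid-induced genes were mostly above 0 without passing. Of 19, 2 were called higher and 14 had a fold change above 0, with a list median of 0.19. Of all 17830 genes tested, 114 were called higher and 8647 were above 0. Zbtb16, a zinc-finger factor, was at 28.4 to 39.9 CPM against 40.7 to 58.9 CPM (0.52, adjusted p = 0.0834 in edgeR). Plekhf1 was at 5.20, 1.94, 1.62 and 2.31 CPM at rest and at 7.69, 5.70, 4.54 and 5.08 CPM after learning, so that home cage replicate 6 fell among the learning mice. Its log2 fold change was 1.08 (adjusted p = 0.0917 in edgeR). With 1 water library left out at a time, Zbtb16 was called in 3 of 8 fits and Plekhf1 in 1. Fkbp5 (0.29), Sgk1 (0.45) and Tsc22d3 (0.46), the best known members, did not pass. The list of 16 heat shock and cold-inducible genes had 1 call in each direction and a median of 0.14. Dnajb1, a cochaperone of Hsp70, rose by 0.37, from 43.2 ± 2.98 to 55.8 ± 4.46 CPM (SD, n = 4 each). It was called in 4 of the 8 fits without 1 water library (adjusted p = 0.0641 in edgeR with all 16). Cirbp, the cold-inducible RNA-binding protein, was at 104, 70.1, 91.8 and 94.1 CPM at rest and at 60.4, 64.7, 68.0 and 66.1 CPM after learning (log2 fold change -0.48, adjusted p = 0.0901 in edgeR). Home cage replicate 8 was within 3 CPM of the highest learning mouse, and Cirbp was called in 1 of the 8 fits that each left out a water library.

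Outside the lists, Tent5a, a noncanonical poly(A) polymerase, was among the 12 largest increases, at 5.08, 5.32, 4.62 and 4.89 CPM against 8.38, 9.30, 9.02 and 8.14 CPM (log2 fold change 0.81, adjusted p = 0.00373 in edgeR). Several further genes are named here after their values were seen, because they were called in each of the 8 fits without 1 water library. P4ha1, a collagen prolyl hydroxylase, was at 45.5, 61.7, 56.0 and 54.6 CPM and at 82.0, 81.5, 85.5 and 81.4 CPM (0.60). Irs2, an adaptor of the insulin receptor, was at 65.8 to 72.4 CPM against 94.4 to 102 CPM (0.52). Both genes had narrow ranges in the learning mice, and Irs2 overlaps a gene on the opposite strand. Lrrc8c, a subunit of volume-regulated anion channels, rose by 0.52, the imprinted gene Zdbf2 by 0.49, the adiponectin receptor gene Adipor2 by 0.48 and Dnajb5, another cochaperone gene, by 0.44. Ppp1r3c, which targets protein phosphatase 1 to glycogen, was at 52.1 to 53.9 CPM against 63.4 to 73.2 CPM (0.41), and Gpt2, the mitochondrial alanine aminotransferase, rose by 0.38.

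Most of the 12 largest decreases without overlap between groups came from genes of low level. 2 of them, Trpv4 and Ace, belong to the choroid plexus list. The long noncoding gene 2410022M11Rik was at 4.05, 4.14, 4.00 and 3.22 CPM at rest and at 2.17, 2.13, 2.10 and 2.02 CPM after learning (log2 fold change -0.86, adjusted p = 0.00357 in edgeR), and it was the only lower gene called in all 29 fits made. Gbp4, an interferon-induced GTPase, fell by 1.01 on the log2 scale, from 3.76 ± 0.904 to 1.88 ± 0.401 CPM (SD, n = 4 each). It overlaps Gbp9, a similar gene on the same strand, so that its count is uncertain, and it was the only call among 27 interferon-induced genes (list median -0.09). Tnfsf10, the death ligand TRAIL, was at 2.14 to 3.76 CPM against 1.43 to 2.07 CPM (-0.90, adjusted p = 0.0362 in edgeR). Cgnl1, a tight junction protein of epithelia, was at 16.9, 25.9, 22.7 and 37.0 CPM against 16.1, 14.2, 14.6 and 15.1 CPM, with home cage replicate 20 highest and replicate 6 near the learning mice. Lrrc29 (-0.91), Krt12 (-0.80), Clec2d (-0.77), Ccdc17 (-0.77), 9330171B17Rik (-0.66) and Gprc5c (-0.64, and -0.75 without learning replicate 24) completed the 12. Krt12, Ccdc17 and 9330171B17Rik overlap genes on the opposite strand. Of the 8 fits without 1 water library, 9330171B17Rik was called in 1 and Gbp4, Krt12 and Clec2d in 2. Cgnl1, Ccdc17 and Gprc5c were called in 3.

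**Figure D3:**
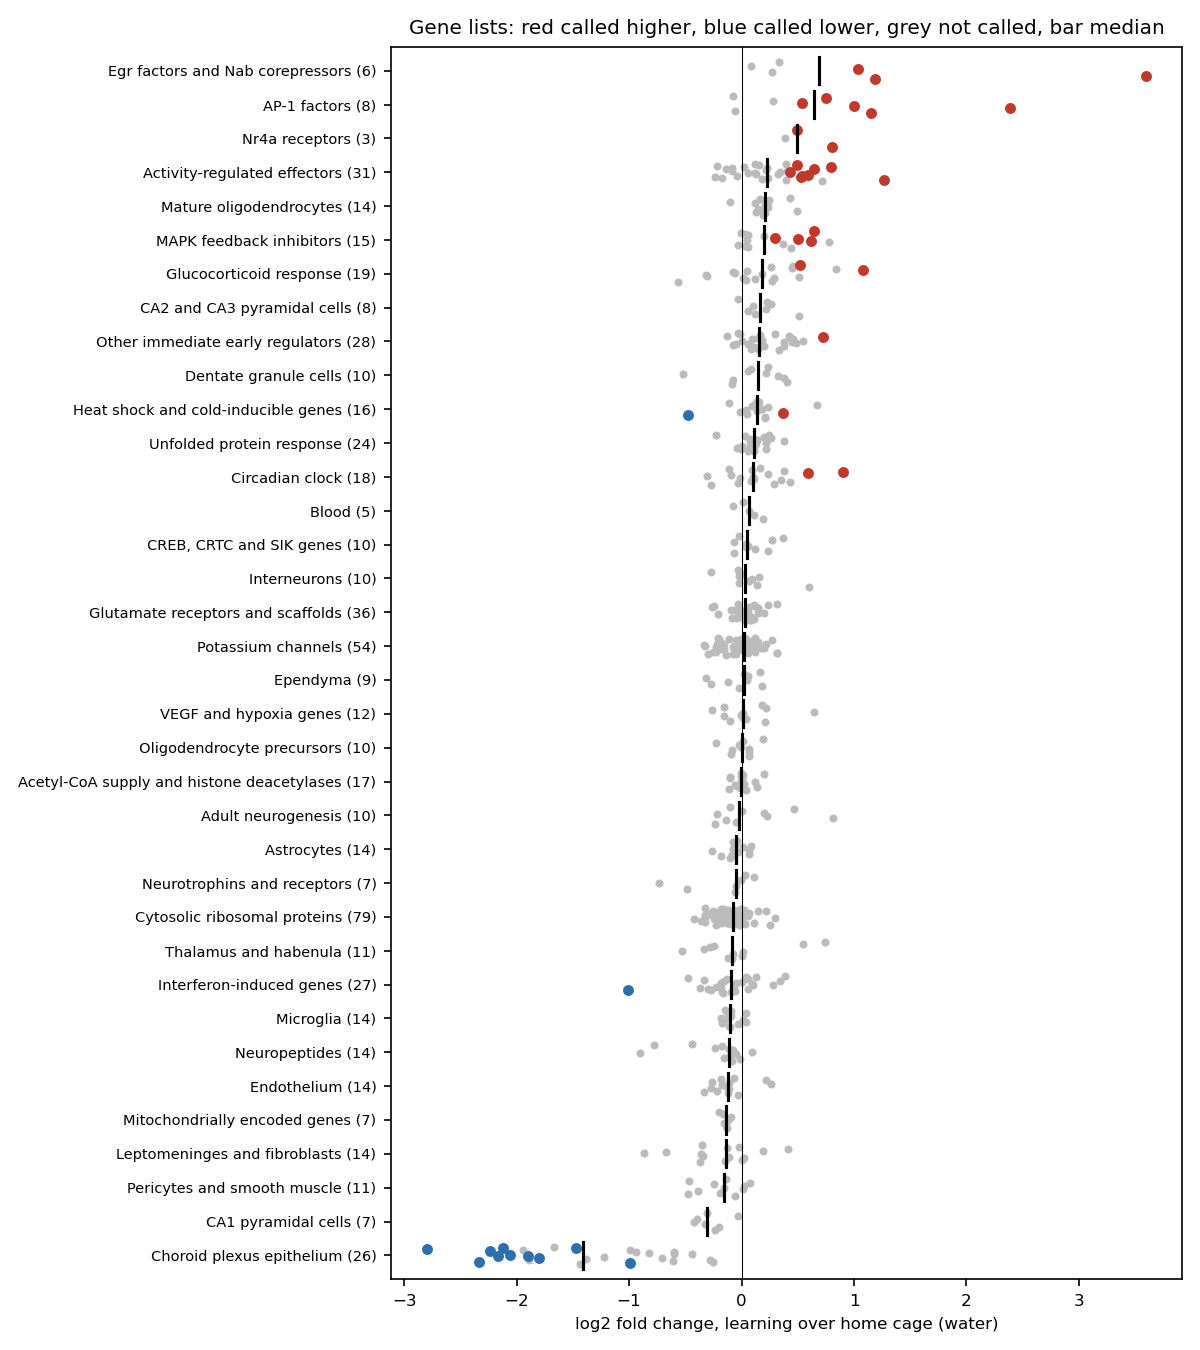
Log2 fold change of learning over home cage in water-treated mice (horizontal axis) for every tested member of 36 gene lists (rows, with the number tested); red points were called higher, blue points lower, grey points did not pass, and black bars are list medians. The Egr, AP-1 and Nr4a lists lie highest, with medians of 0.69, 0.64 and 0.50, and the choroid plexus list lies lowest, with a median of -1.41.

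The choroid plexus was examined apart from the rest. All 26 tested members of its list had a log2 fold change below 0, 10 of them were called lower, and the list median was -1.41 against -0.01 for all genes. In bulk tissue, fewer cells of a type and less RNA per cell cannot be told apart. Ttr (ENSMUSG00000061808) was at 245, 1026, 812 and 2161 CPM in the home cage mice and at 355, 114, 147 and 363 CPM in the learning mice. Home cage replicate 6 was below 2 of the 4 learning mice, and replicate 20 was higher than any other mouse. The means of 1061 ± 804 and 245 ± 133 CPM (SD, n = 4 each) lay -2.12 ± 0.52 log2 units apart, learning over home cage (± standard error; adjusted p = 0.0870 in edgeR). An exact two-sided permutation test of the mean CPM gave p = 0.0857. Ttr was called in 2 of the 8 fits without 1 water library.

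The other called members followed the mice and not only the groups. Tmem72 was at 3.33, 13.7, 12.2 and 24.5 CPM at rest and at 2.61, 0.955, 0.752 and 3.55 CPM after learning (log2 fold change -2.80, adjusted p = 0.0157 in edgeR). Aqp1, the water channel of the epithelium, was at 2.26, 11, 10.4 and 22.4 CPM and at 2.91, 1.52, 1.45 and 3.39 CPM (-2.33). Both show the same order of home cage mice as Ttr, with replicate 6 within the learning range. Slc4a5 (-2.24), a bicarbonate transporter, the potassium channel genes Kcne2 (-2.17) and Kcnj13 (-2.06), the folate receptor Folr1 (-1.90), Col8a1 (-1.80), the calcium-permeable channel Trpv4 (-1.47) and the peptidase Ace (-0.99) were also called. Only Trpv4 and Ace had no overlap between groups among the 26. Folr1, Kcnj13 and the uncalled member Cab39l overlap genes on the opposite strand.

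Members that did not pass had log2 fold changes of -1.95 (Steap1), -1.89 (Cldn2), -1.67 (Wfdc2), -1.43 (1500015O10Rik), -1.38 (Clic6), -1.22 (F5), -0.99 (Sostdc1), -0.93 (Prlr), -0.82 (Otx2), -0.70 (Enpp2), -0.61 (Calml4), -0.60 (Slc13a4), -0.60 (Kl), -0.44 (Msx1), -0.28 (Car12) and -0.26 (Cab39l). Home cage replicate 20 was the highest of the 8 water mice in 25 of the 26 members, and replicate 6 the lowest of the home cage mice in all 26. The order of the 4 home cage mice was that of Ttr in 23 of the 25 other members and in 5.06% of all genes tested. It was also that of Ttr in 20 of the other 58 called lower genes and in 7 of the 114 called higher genes. Those 20 genes include every called list member other than Ttr, which the count of 23 also holds. Without Ttr, the summed level of the list was 456 to 1306 CPM in home cage mice and 382 to 672 CPM in learning mice (exact two-sided permutation test, p = 0.0857). Without home cage replicate 20, 1 member was called and the whole comparison had 5 lower genes. Leaving out home cage replicate 6 gave 19 called members and 74 lower genes. Leaving out learning replicate 24 gave 14 called members and a list median of -1.63.

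**Figure D4:**
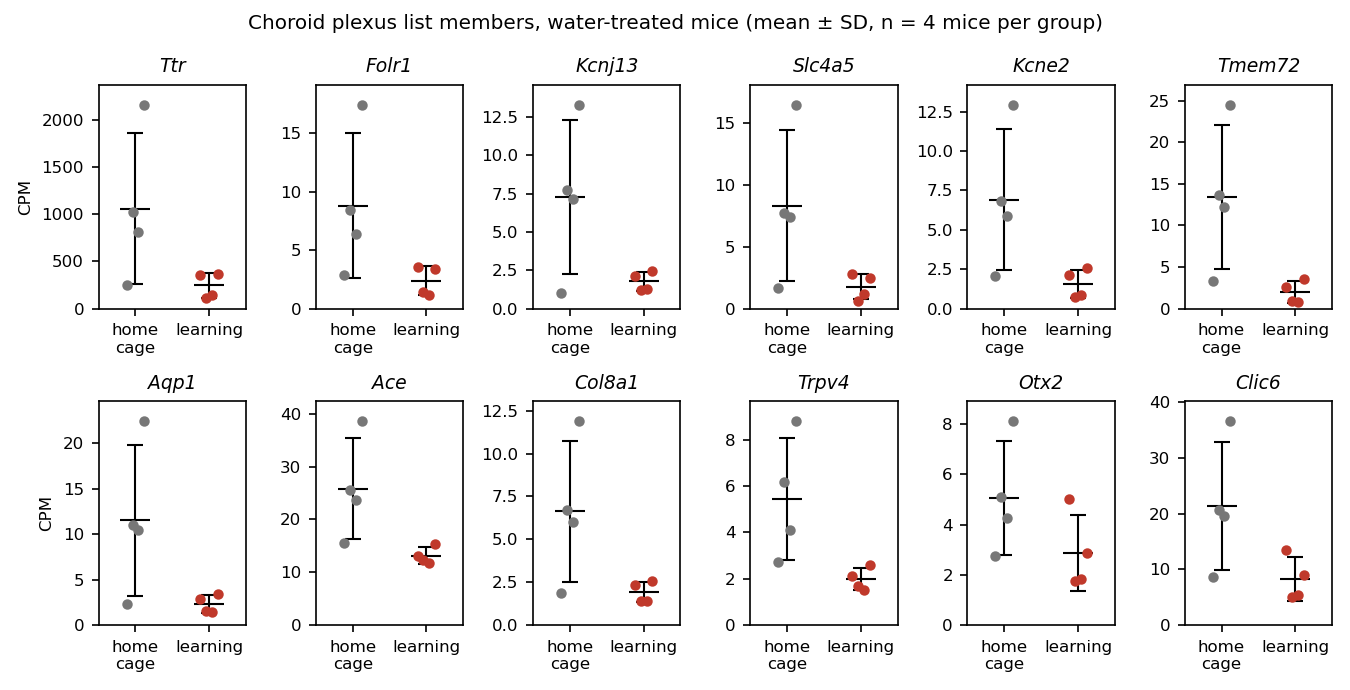
CPM in each of the 8 water-treated mice for 12 members of the choroid plexus list, the 10 called lower together with Otx2 and Clic6, which did not pass; grey points are home cage mice, red points learning mice, and bars show the mean ± SD of 4 mice. The home cage mice span a wide range, for Ttr from 245 to 2161 CPM, and their lowest mouse lies at or near the level of the learning mice of 114 to 363 CPM.

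With the log2 CPM of Ttr in each of the 16 libraries as a covariate, the median of the choroid plexus list moved from -1.41 to 0.06 and that of the higher genes from 0.41 to 0.40. Of the 25 members other than Ttr, 16 then had a fold change above 0. Slc4a5 moved from -2.24 to -0.09 and Kcnj13 from -2.06 to 0.08, while Tmem72 (-2.80 to -0.84), Trpv4 (-1.47 to -0.43) and Kcne2 (-2.17 to -0.35) stayed below 0 and Slc13a4 went from -0.60 to 0.77. Among the other 58 lower genes, 19 had a fold change of no more than 0.5 times the reported one, namely the 9 called list members and 10 genes outside the list. These 10 were Mfrp, Slc16a8, Cgnl1, Scara5, Fap, Steap2, Slc37a2, Gm44250, Gbp4 and Gprc5c, of which the first, Mfrp, was at 2.02, 8.76, 6.75 and 16.6 CPM at rest. The genes among them that the naming rule does not hold are given because this count singles them out. Of the 114 higher genes, 1 shrank that much, Nr4a1 (0.81 to 0.40). Egr2 was at 3.68, Fos at 2.36 and Per2 at 0.98 with the covariate. Junb went from 0.76 to 0.44 (adjusted p = 0.173 in edgeR) and Arc from 1.27 to 0.93 (adjusted p = 0.171 in edgeR). Per1 went from 0.59 to 0.40 (adjusted p = 0.175 in edgeR). Junb, Arc, Per1 and Nr4a1 were no longer called. The median standard error of the higher genes was 0.083 without and 0.112 with the covariate, which itself differed between the groups, and 9 of the 114 higher and 2 of the 59 lower genes were called with the covariate. With the 26 list genes removed before normalization, 112 of the 114 higher genes and 45 of the other 49 lower genes were called.

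**Figure D5:**
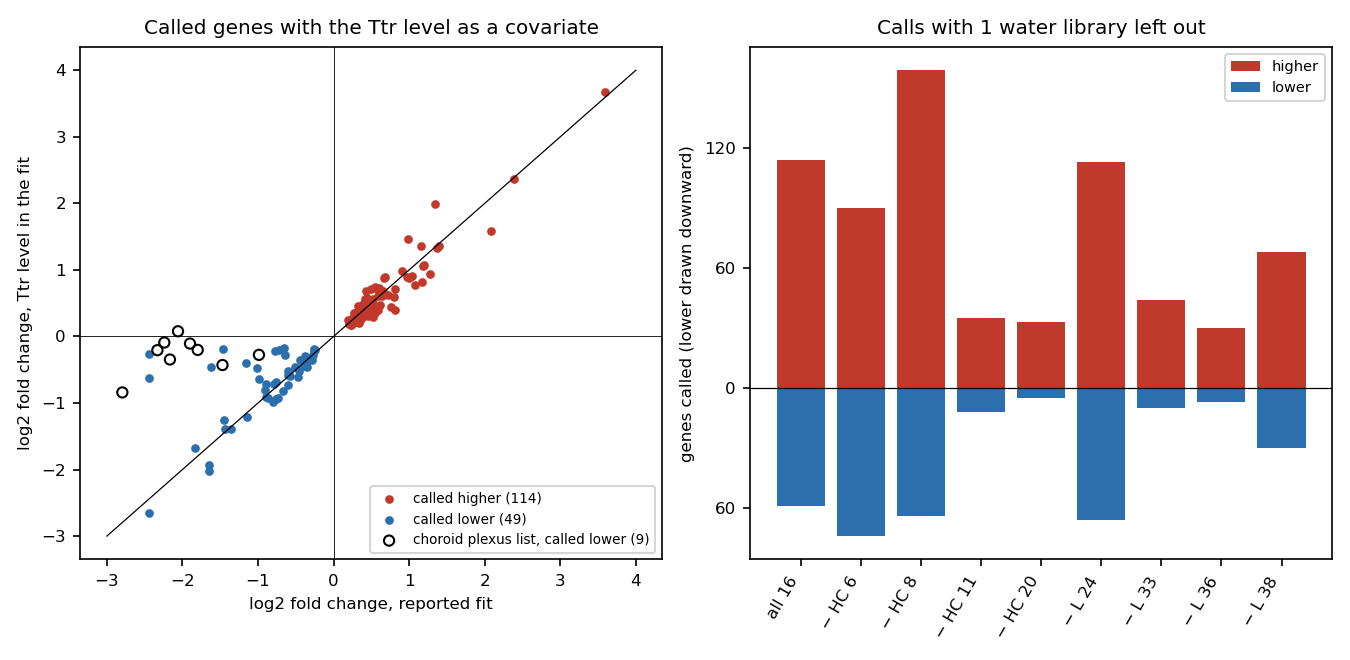
Left, log2 fold change with the Ttr level in the fit (vertical axis) against the reported log2 fold change (horizontal axis) for called genes other than Ttr, with the line of equality; red points are higher genes, blue points lower genes, and rings 9 called choroid plexus members. Right, number of genes called higher (red) and lower (blue, drawn downward) with all 16 libraries and without each water library in turn, where HC is home cage and L learning; the rings lie between -0.84 (Tmem72) and 0.08 (Kcnj13) on the vertical axis, and the lower calls range from 5 to 74.

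Markers of the other cell types that the tissue can hold had no call in either direction. The medians were -0.05 for 14 astrocyte genes, -0.10 for 14 microglial genes, -0.12 for 14 endothelial genes, -0.16 for 11 pericyte and smooth muscle genes, 0.01 for 10 oligodendrocyte precursor genes, 0.02 for 9 ependymal genes, -0.14 for 14 leptomeningeal genes, -0.09 for 11 thalamic and habenular genes and 0.07 for 5 blood genes. Without learning replicate 24 the medians were -0.38 (ependymal), -0.27 (blood), -0.25 (leptomeningeal) and -0.11 (precursor), again with no call. Those of the astrocyte, microglial, endothelial, pericyte and thalamic lists then lay between -0.20 and -0.02, also with no call. Mature oligodendrocyte genes had a median of 0.21 with 13 of 14 above 0, and without replicate 24 a median of -0.16 with 2 of 14 above 0. Mbp, a myelin component, was at 3544, 2514, 2353 and 2708 CPM at rest and at 5364, 2773, 2441 and 2305 CPM after learning, so that replicate 24 alone was above the home cage range. Its log2 fold change was 0.21 with that mouse and -0.15 without it. The summed level of the 14 genes was 13198 CPM in that mouse and 5698 to 8190 CPM in the other 7. Without replicate 24, 113 genes were called higher and 66 lower, of which 83 and 38 were among the reported ones.

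The neuronal lists were also without calls. The 7 CA1 genes were all below 0 (median -0.31), with Mpped1 at -0.32 and Fibcd1 at -0.23. The 8 genes of CA2 and CA3 had a median of 0.17, the 10 dentate granule cell genes 0.15, the 10 interneuron genes 0.03 and the 10 neurogenesis genes -0.02. Without learning replicate 24 these medians were -0.19 (CA1), 0.10 (CA2 and CA3), 0.26 (dentate), 0.09 (interneuron) and -0.01 (neurogenesis), with no call. Glutamate receptor and scaffold genes (36, median 0.03), potassium channel genes (54, median 0.02), neuropeptide genes (14, median -0.11, 13 below 0), neurotrophin and receptor genes (7, median -0.05) and the CREB, CRTC and SIK genes other than Sik1 (10, median 0.05) had none called. Sik1 and Bdnf were counted among the effectors and not in these lists. There Sik1 was called higher and Bdnf did not pass. Camk2a was at 4248 to 4924 CPM at rest and at 4401 to 5032 CPM after learning (0.03), and Ntrk2, the BDNF receptor gene, had a log2 fold change of -0.00. Among the 2 most abundant members of each list without calls, the lowest log2 fold change was -0.87, of Igf2 in the leptomeningeal list. With the Ttr covariate Igf2 was at -0.03, and Igfbp2 of the same list moved from -0.67 to -0.08. Igf2 overlaps a gene on the opposite strand. The 7 mitochondrially encoded genes tested were all below 0 (median -0.13), as were 64 of 79 cytosolic ribosomal protein genes (median -0.08). Of all 17830 genes tested, 9183 were below 0.

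The unfolded protein response, VEGF and acetyl-CoA lists were included because the study names members of them. It names Xbp1, Vegfa and Acss1 for the response to learning under caffeine. Of 24 unfolded protein response genes, 20 were above 0, against 8647 of all 17830 genes tested, and none was called (median 0.11). Xbp1, a transcription factor of that response, was at 63.4, 76.4, 59.1 and 66.9 CPM at rest and at 86.0, 79.3, 79.5 and 70.7 CPM after learning (log2 fold change 0.25, adjusted p = 0.288 in edgeR), with 1 learning mouse within the home cage range. Vegfa, the angiogenic growth factor, was at 56.6 to 74.1 CPM against 72.4 to 85.6 CPM (0.22, adjusted p = 0.357 in edgeR). Acss1, a mitochondrial acetyl-CoA synthetase, was at 35.7 to 45.2 CPM against 34.5 to 41.1 CPM (-0.11, adjusted p = 0.638 in edgeR). It overlaps a gene on the opposite strand. These values are those of the water-treated mice. Under caffeine the log2 fold change was 0.40 for Xbp1 (adjusted p = 0.0304 in edgeR), 0.40 for Vegfa (0.0295) and 0.22 for Acss1 (0.159). None of these genes passed for the difference between treatments.

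The 8 caffeine-treated libraries give a second set of mice for the same contrast, apart from the shared gene filter, scaling and estimate of the spread. Of the 114 genes higher under water, 110 had a fold change above 0 under caffeine, with a median of 0.38, and of the 59 lower genes 53 were below 0, with a median of -0.43. Called in the same direction under caffeine were 80.7% of the higher genes and 28.8% of the lower genes, where 3.16% of all tested genes were called higher and 2.13% lower. These 2 groups were 16.3% and 4.49% of the genes called higher and lower under caffeine. The choroid plexus list had a median of -0.61 there and no call. Ttr was at 144, 421, 207 and 188 CPM in home cage caffeine replicates 2, 9, 14 and 17 and at 154, 92.9, 140 and 74.0 CPM in learning caffeine replicates 22, 27, 30 and 40. Fos had a mean of 13.3 CPM after learning under water and 14.2 CPM under caffeine. In the home cage its mean was 2.5 CPM under water (1.59 to 3.12) and 4.74 CPM under caffeine (3.71 to 6.42), without overlap. The part of this home cage level in the response was not tested. Fos was the marker with the most different response, with a log2 fold change of 2.39 under water and 1.57 under caffeine. The difference of -0.82 had an unadjusted p of 0.00863 in edgeR, and no gene had an adjusted p under 0.1 for the difference (lowest 0.359; 648 genes had an unadjusted p under 0.05).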

How the data were processed

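The authors prepared stranded mRNA libraries, mapped single-end reads of 50 bases to mm10 with STAR and Bowtie 2, counted uniquely aligned reads with HTSeq-count 0.6.1p1 (union mode, Ensembl 90) and deposited raw read counts. Whether counting used strand is not given in the sources used here. From these counts, edgeR 4.0.16 (R 4.3.3) was run on all 16 libraries with TMM scaling, filterByExpr (17830 of 35328 genes kept), a mean per group and its quasi-likelihood test; p-values were adjusted over all tested genes (Benjamini-Hochberg), and called means an adjusted p under 0.1. The median standard error was 0.10. Positions come from GENCODE M21 (81 genes unmatched). No pair of libraries of a group agreed within sampling noise. The tests were tried on simulated data. The mice compared, the 36 lists and the naming rule were chosen with earlier results of these data known. The rule took Egr2, Fos and Arc, the 12 largest changes in each direction among called genes whose groups do not overlap and whose average log2 CPM is 1 or more, called list members, the choroid plexus members, the 2 most abundant members of a list without calls, and Fosb, Xbp1, Vegfa and Acss1. A few genes that the rule takes and 1 further list are not reported here. Permutation tests used all 70 assignments. Alternatives were DESeq2 1.42.0 and its size factors, other filters and thresholds, robust shrinkage, thinning, a length and GC correction, the Ttr covariate, removal of choroid plexus genes and left-out libraries; leaving out caffeine libraries was added after seeing the data.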

Additional observations from a re-analysis of the deposited data

Results flagged for a closer look

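A mouse was marked where its distance from the nearest other mouse of its group, as a share of the group's range, was above the 95% critical value of Dixon's test for 4 values. Of 240 group values examined, 17 were marked, and chance marks about 1 in 20. No gene was marked for a difference between the responses under water and caffeine.

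Learning replicate 24 was the marked mouse in 10 cases. It was highest for the myelin genes Bcas1 (share 0.896; 321 CPM against 145 to 163) and Mbp (0.847; 5364 against 2305 to 2773). The same mouse was highest for Rasl11a (0.876), Msx1 (0.870), Gprc5c (0.856), Slc13a4 (0.847), Vtn (0.846), mt-Cytb (0.842) and Igfbp2 (0.836) and lowest for Gad1 (0.840; 323 against 382 to 394).

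Home cage replicate 6 was lowest for Egr2 (0.949; 0.119 against 0.542 to 0.564 CPM), Car12 (0.867; 33.5 against 57.6 to 61.3) and Tiparp (0.865; 17.3 against 18.6 to 18.8). Home cage replicate 20 was lowest for 2410022M11Rik (0.842) and highest for Vtn (0.834). Learning replicate 38 was highest for Dcx (0.974; 23.5 against 19.2 to 19.3) and lowest for Errfi1 (0.882; 51.1 against 57.9 to 58.8).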

How the results depend on the processing

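The 114 higher and 59 lower genes became 287 and 140 with DESeq2 on 16 libraries, 318 and 157 with DESeq2 on the 8 water libraries, 66 and 19 with edgeR on those 8, 193 and 97 with every gene of at least 1 count, 50 and 20 at an adjusted p under 0.05, and 11 and 6 with the Ttr covariate. DESeq2 on 16 libraries called 111 of the 114 and 53 of the 59. Leaving out libraries gave 30 to 217 higher and 5 to 95 lower genes: 35 and 12 without home cage water replicate 11, 33 and 5 without replicate 20, 44 and 10 without learning water replicate 33, 30 and 7 without replicate 36, and 68 and 30 without replicate 38. Of the caffeine libraries, 217 and 95 were called without home cage replicate 17 and 73 and 36 without learning replicate 30. The cause of these shifts was not tested. DESeq2 size factors, at least 10 counts in every library, robust shrinkage, thinning, the length and GC correction and removal of choroid plexus genes kept both counts within 1.5 times. Fos, Egr1, Egr4, Fosb, Per2, P4ha1, Pcsk1 and 2410022M11Rik were called in all 29 fits. Among 50 called named genes, 1 value of 1388 changed sign, Kcnj13 with the Ttr covariate (0.078). In 1 water library left out at a time, 27 of the 114 higher and 4 of the 59 lower genes were called each time. No paired analysis was possible because no replicate number is shared between groups.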

Other observations

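Some called genes had a response under water and none, or the opposite, under caffeine; they are named after their values were seen, and no difference passed the adjusted threshold (lowest adjusted p 0.359 in edgeR). Th, the rate-limiting enzyme of catecholamine synthesis, was at 1.27, 1.5, 0.965 and 0.752 CPM in the home cage water mice and at 0.320, 0.477, 0.233 and 0.391 CPM in the learning water mice, a log2 fold change of -1.65 against 0.38 under caffeine (unadjusted p of the difference = 9.59e-05 in edgeR). It was called in each of the 8 fits without 1 water library. Gpr50, a melatonin-receptor-related gene, was at 0.107 to 0.350 CPM against 0.326 to 1.40 CPM, a log2 fold change of 2.08 under water and -1.34 under caffeine. Cnmd was called in opposite directions, higher under water (1.39, adjusted p = 0.0608 in edgeR) and lower under caffeine (-1.18, adjusted p = 0.0625 in edgeR). It was the gene with the lowest adjusted p of the difference. Npffr1 (0.66 and -0.26) and Plekhh2 (0.39 and -0.06) were above 0 under water and below 0 under caffeine. Aph1c (-0.32 and 0.08) and Lhfp (-0.27 and 0.04) were below 0 under water and above 0 under caffeine. Most of these genes are at a few CPM or less, where 1 mouse can move a value. Of the 114 higher genes, 10 had an unadjusted p under 0.05 for the difference, and of the 59 lower genes 20.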
